A study of Mus musculus with 8 samples.

Results

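The genes of the autophagy machinery were followed in mouse embryos at the 2-cell stage, in embryos labelled Brg1 mutant and in wild type embryos. The members were 37 genes chosen by name, from the kinase complex that starts an autophagosome to the receptors that load it. A probe set annotated to the gene and to no other was found for 36 of them, out of 18193 genes with such a probe set on the array. Optn, which encodes the cargo receptor optineurin, had none in the annotation used here and was not analysed. Where a gene had several probe sets, the one with the highest mean log2 signal over all 8 arrays stood for it and is called its brightest probe set. Of the 36 genes, 34 lay in the upper 50% of probe sets by mean log2 signal and were tested, among 11934 genes so tested. Pik3c3 and Atg4c lay below that limit and are given as values only.

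There were 4 Brg1 mutant and 4 wild type samples, each of total RNA pooled from 20 whole embryos and read on an Affymetrix mouse array. The series title places the study in maternal BRG1, the ATPase of BAF chromatin remodelling complexes encoded by Smarca4, and in activation of the zygotic genome. The allele, the Cre driver if any, the strain and the age of the mothers are not stated in what was used here. The labels number the samples as replicates and say nothing of separate mothers or collections, and p-values therefore reflect only how these samples vary, which may be technical.

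Autophagy encloses a portion of cytoplasm in a double membrane, the autophagosome, which fuses with a lysosome so that its contents are broken down. A kinase complex around ULK1 starts the process, a lipid kinase complex around PIK3C3 and Beclin 1 marks the site, ATG9, ATG2 and WIPI proteins supply and recognise membrane, and ubiquitin-like conjugation attaches ATG8 proteins (the LC3 and GABARAP families) to lipid. In the mouse, autophagy is triggered soon after fertilisation, and embryos that lack both the maternal and the zygotic supply of ATG5 stop developing before the blastocyst.

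Values are MAS5 signals on a linear scale, with the same trimmed mean on every array. Signals depend on each probe set's own sequence, so no gene's level is set against another's. In bulk samples, fewer cells of a type and less RNA per cell cannot be told apart. The label was checked first on Smarca4. Its brightest probe set read 388, 201, 273 and 291 in Brg1 mutants, against 796, 632, 612 and 661 in wild type, and fell 2.39-fold (log2 change -1.26, SE 0.249, limma adjusted p = 0.0211), while its other probe set did not pass (log2 change 0.04, adjusted p = 0.963). Smarca4 did not pass without mutant replicate 3 or 4 or any wild type array (log2 change between -1.30 and -1.18, adjusted p between 0.0526 and 0.0834), nor with the mean of its probe sets (-0.61, adjusted p = 0.193). The altered stretch of the transcript was not looked up here. The 8 listed markers of oocyte and 2-cell embryo that had a probe set were above background on all 8 arrays. Zscan4c and Zscan4d were also listed but had no probe set, so they could not be read. The 8 markers summed to 45838 to 48638 in mutant replicates 1 and 2. The sums were 19602 to 22426 in mutant replicates 3 and 4 and 17511 to 23490 in wild type. Single markers did not all follow these sums. Zar1 read 2066, 2820, 2439 and 2483 in Brg1 mutants, against 337, 411, 360 and 338 in wild type. Gdf9 and Nlrp5 were also higher on every mutant array than on any wild type array. On mutant replicates 3 and 4, Bmp15, Pou5f1, Zp3 and Dppa3 lay below every wild type array, while Oosp1 overlapped wild type.

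The 4 mutant arrays were not alike, and their 2 pairs are given apart wherever it matters. Across tested probe sets the correlation was 0.969 between mutant replicates 3 and 4, and 0.738 to 0.774 between either of them and the other 6 arrays. Of 13 granulosa and cumulus markers with a probe set, 9 were higher in both of them than in any of the other 6 arrays. Cyp11a1, Amh and Has2 overlapped the other arrays, and Ptx3 was lowest there, under the background bound. The 13 markers summed to 15539 to 19309 in mutant replicates 3 and 4, 668 to 701 in mutant replicates 1 and 2, and 521 to 661 in wild type, where Inhba and Vim were under the background bound on every array. Hsd3b1, Inha, Inhba and Vim made up most of the sums in mutant replicates 3 and 4. Foxl2 differed little, at 190 and 187 there against at most 182 on the other arrays. Oviduct epithelium markers summed to 1892 to 1973, 1126 to 1353, and 971 to 1051 in the same 3 sets of arrays. Of 7, 3 (Ovgp1, Krt8 and Krt18) were highest in mutant replicates 3 and 4. Pax8 and Foxj1 were lowest there, and Epcam and Cdh1 overlapped the other arrays. Of 6 blood markers, 2 (Lyz2 and Ptprc) were highest in mutant replicates 3 and 4. The bound is the 95th percentile, on each array, of 27 control probe sets for Bacillus transcripts. Hybridisation controls stood at 6.05 and 3.80 times the wild type geometric mean on mutant replicates 1 and 2, against 1.40 and 0.711 on replicates 3 and 4. The ratio of 3 prime to 5 prime signal of actin was 12.9 and 15.05 in mutant replicates 1 and 2 and 7.04 and 4.88 in mutant replicates 3 and 4, against 16.3 to 21.1 in wild type. For Gapdh this ratio was 6.63 to 7.33 in mutants and 8.58 to 10.1 in wild type (for each ratio, two-sided exact permutation p = 0.0286, the smallest that 4 against 4 allows, and adjusted p = 0.0571 over 4 array measures). The part of these differences in any result below was not tested, and since the pairs were told apart by such values, the difference between them was not tested either.

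Across the tested autophagy genes, Atg10 and Atg12 rose and Wipi2 fell in Brg1 mutants, and the other 31 did not pass. ATG12 is the ubiquitin-like protein that becomes attached to ATG5, ATG10 is the enzyme that attaches it, and WIPI2 binds the phosphoinositide made by the PIK3C3 complex and recruits ATG16L1. The 3 called genes are 8.82% of the 34 tested, beside 7.04% called among all 11934 genes tested at their brightest probe set, so the share is near the background. By direction, 2 of 34 rose where 3.01% of all genes did, and 1 of 34 fell where 4.03% did. Scaling moved the split over all tested probe sets, which was 671 higher and 807 lower, to 421 and 1557 with median centring and to 496 and 1104 with centring on the 75th percentile. Log2 changes of the 34 ran from -1.55 to 1.59 with a median of -0.01, beside -0.05 for all genes tested, and 17 were positive and 17 negative. No mutant array overlapped wild type for 5 of the 34 (14.7%), beside 18.7% of all genes tested. In 3 of them, Atg10, Atg12 and Atg4b, the mutants were higher, as in 8.1% of all genes, and in 2, Wipi2 and Atg101, lower, as in 10.6%.

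**Figure D1:**
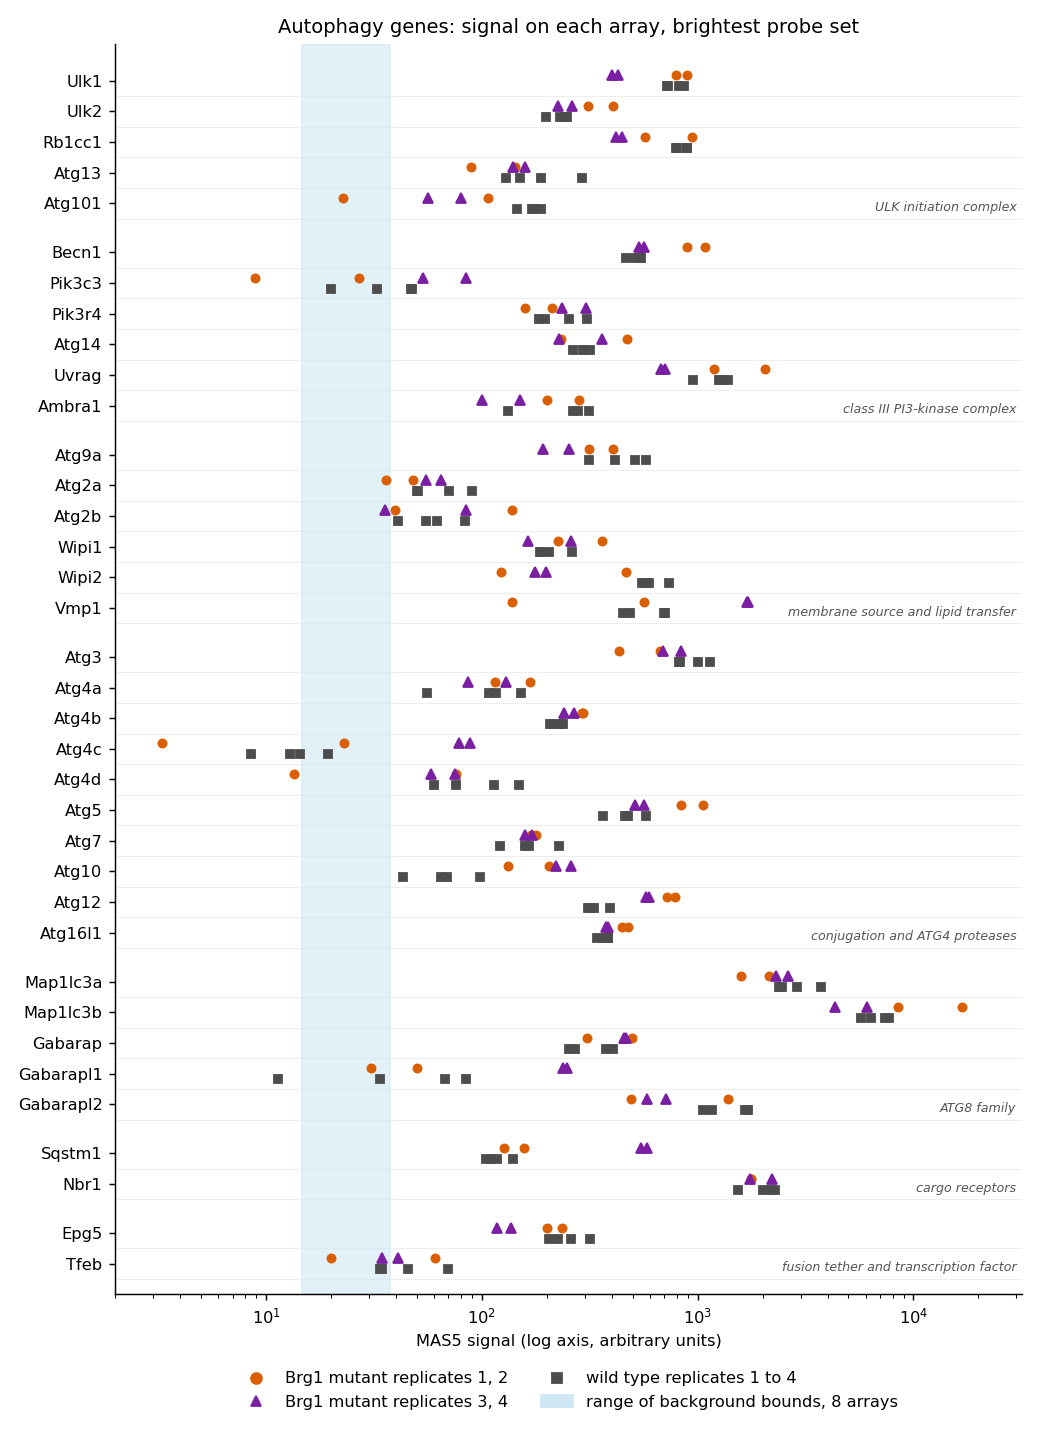
MAS5 signal (log axis) of the brightest probe set of 36 autophagy genes on each array, by role, with Brg1 mutant arrays above wild type arrays in each row and the range of the 8 background bounds shaded. Each point is 1 array. Atg10 and Atg12 lie to the right of wild type and Wipi2 and Atg101 to the left on all 4 mutant arrays, while Sqstm1, Vmp1 and Gabarapl1 are high only on mutant replicates 3 and 4.

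The conjugation machinery held both genes that rose. Atg10 signal was 133, 205, 260 and 221 in Brg1 mutants, against 42.9, 69.3, 64.8 and 98.5 in wild type. Every mutant array was above every wild type array, and the lowest mutant value belonged to replicate 1. Atg10 rose 3.01-fold (log2 change 1.59, SE 0.325, limma adjusted p = 0.0231). For Atg12 the brightest probe set read 722, 787, 595 and 577 in Brg1 mutants, against 310, 321, 330 and 392 in wild type. Again no mutant array reached down to wild type, here with replicates 1 and 2 the higher pair. The means were 670 ± 101 in mutants and 339 ± 36.7 in wild type (SD, n = 4 each), a 1.97-fold rise (log2 change 0.98, SE 0.215, limma adjusted p = 0.0285). Atg10 had 1 probe set on the array, and the other 2 of Atg12 were too dim to be tested.

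Both calls were lost when any 1 of the 4 wild type arrays, or mutant replicate 3 or 4, was left out. Limma adjusted p was then between 0.0562 and 0.0811 for Atg10 and between 0.0603 and 0.0966 for Atg12. In those 6 fits 0.324% to 1.96% of all tested probe sets passed, against 6.56% with all arrays. The log2 change then lay between 1.38 and 1.78 for Atg10 and between 0.94 and 1.052 for Atg12. Mutant replicates 1 and 2 on their own against wild type gave 1.32 for Atg10 (adjusted p = 0.0609) and 1.16 for Atg12 (adjusted p = 0.0221), and replicates 3 and 4 gave 1.86 and 0.80 (adjusted p = 0.00196 and 0.00853). The 2 fits share the wild type arrays. Centring the arrays on their median or their 75th percentile left Atg12 just short of the threshold (adjusted p = 0.0510 and 0.0674).

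The other 7 tested conjugation genes did not pass, and 0 were under an unadjusted p of 0.05. Atg3, whose product is the enzyme that attaches ATG8 proteins to lipid, read 669, 433, 695 and 836 in Brg1 mutants and 1138, 828.7, 1009 and 823 in wild type. The groups overlapped only through mutant replicate 4, and the log2 change was -0.55 (SE 0.256, limma adjusted p = 0.206). Atg7, the activating enzyme shared by both conjugation arms, had almost equal means of 169 ± 8.27 in mutants and 169 ± 44.6 in wild type (SD, n = 4 each; log2 change 0.04, SE 0.251). Atg16l1, which joins the ATG12 and ATG5 conjugate to the membrane, had a log2 change of 0.18 (SE 0.204). Among the proteases that trim ATG8 proteins and free them from lipid, Atg4a, Atg4b and Atg4d had log2 changes of 0.26, 0.30 and -1.02, with standard errors of 0.350, 0.208 and 0.557. On mutant replicate 2 Atg4d read 13.5, under that array's background bound of 37.7.

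Atg4c, the remaining protease gene, was dim. Its brightest probe set read 3.30, 22.9, 78.2 and 88.4 in Brg1 mutants and 12.9, 14.4, 8.50 and 19.3 in wild type, above the bound on mutant replicates 3 and 4 and on wild type replicate 4 alone. With no filter on dim probe sets its log2 change was 1.03 (SE 0.938, limma adjusted p = 0.615). Its other probe set passed in that fit (adjusted p = 0.0470) at signals of at most 20.2, a level close to background.

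Atg5 was read by 3 tested probe sets that went different ways. The brightest gave 840, 1061, 562 and 513 in Brg1 mutants, against 458, 365, 579 and 474 in wild type (log2 change 0.62, SE 0.284, limma adjusted p = 0.201). Mutant replicates 1 and 2 stood above every wild type array on it, and passed on their own against wild type (log2 change 1.03, adjusted p = 0.0445). The second read 393, 588, 240 and 325 in mutants and 685, 485, 846 and 843 in wild type (log2 change -0.93, SE 0.313, adjusted p = 0.0991). On that probe set replicates 3 and 4 were below every wild type array, and passed on their own (log2 change -1.32, adjusted p = 0.00389). The third had a log2 change of 0.09 (SE 0.315), so these data give no settled direction for Atg5.

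Promoter sequence was looked at because TFEB, a member, is the transcription factor known for driving autophagy and lysosome genes through E-boxes, and because NRF2 is known to drive some of them through antioxidant response elements. The 250 bases before the annotated start were taken from RefSeq (GRCm38.p6), which gave 37 windows for 30 of the 37 genes. The E-box core CACGTG, which reads the same on both strands, was in 3 of these windows (8.11%), of Atg3, Atg5 and Atg7, beside 6.02% of all 32851 windows. The longer form TCACGTGA, which contains the core, was in 1, of Atg3, beside 0.785% of all windows. The antioxidant core TGACNNNGC, searched on both strands, was in 5 windows (13.5%), of Atg13, Ulk2 and Vmp1, beside 10.2%. These matches describe letters and show no binding. The windows below are those of Atg10 and Wipi2, genes that passed, and of Atg3 and Atg5, which hold the core, with matches to CACGTG in capitals, 5 prime to 3 prime.
Atg10 (chr13:91223988-91224237, - strand): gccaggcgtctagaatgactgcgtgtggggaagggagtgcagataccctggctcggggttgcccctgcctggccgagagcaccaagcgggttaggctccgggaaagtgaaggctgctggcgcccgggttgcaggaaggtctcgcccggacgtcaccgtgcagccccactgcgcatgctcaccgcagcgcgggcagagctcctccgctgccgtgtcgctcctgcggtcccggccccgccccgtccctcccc
Wipi2 (chr5:142629334-142629583, + strand): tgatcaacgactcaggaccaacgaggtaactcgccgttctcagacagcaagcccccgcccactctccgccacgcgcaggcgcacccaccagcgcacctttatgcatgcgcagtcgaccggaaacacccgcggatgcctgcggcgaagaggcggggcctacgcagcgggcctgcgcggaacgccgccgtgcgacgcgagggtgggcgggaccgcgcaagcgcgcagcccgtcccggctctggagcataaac
Atg3 (chr16:45158579-45158828, + strand): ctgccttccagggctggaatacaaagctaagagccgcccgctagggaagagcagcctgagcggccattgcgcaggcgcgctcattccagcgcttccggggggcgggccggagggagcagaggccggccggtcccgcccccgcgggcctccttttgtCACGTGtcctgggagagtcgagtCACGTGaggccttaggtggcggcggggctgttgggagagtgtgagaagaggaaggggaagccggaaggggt
Atg5 (chr10:44268089-44268338, + strand): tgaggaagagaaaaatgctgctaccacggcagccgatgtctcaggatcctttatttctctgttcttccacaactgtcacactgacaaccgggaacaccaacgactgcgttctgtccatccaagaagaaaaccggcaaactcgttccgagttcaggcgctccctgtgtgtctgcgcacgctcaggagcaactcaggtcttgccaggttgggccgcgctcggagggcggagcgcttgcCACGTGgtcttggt
The cores of Atg3 start 94 and 71 bases before the annotated start, and that of Atg5 starts 14 bases before it. Atg10 and Wipi2 held none of the 3 motifs in these windows, which says nothing of the rest of the gene.

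Among the membrane genes, Wipi2 fell. Its brightest probe set read 465, 123, 177 and 199 in Brg1 mutants, against 740, 597, 578 and 550 in wild type. All mutant arrays were below all wild type arrays, and mutant replicate 1 was the closest to them. The fall was 2.89-fold (log2 change -1.53, SE 0.369, limma adjusted p = 0.0368). A second tested probe set of Wipi2 did not follow, at 284, 206, 174 and 186 in mutants and 176, 207, 136 and 138 in wild type (log2 change 0.37, SE 0.259, adjusted p = 0.413). Averaged over its probe sets, Wipi2 stood at -0.58 on the log2 scale, short of the threshold (adjusted p = 0.221). The call on the brightest probe set was lost without any of the 4 wild type arrays or without mutant replicate 3 or 4 (adjusted p between 0.0838 and 0.115), and with no filter (adjusted p = 0.0509). Mutant replicates 1 and 2 on their own gave -1.36 (adjusted p = 0.0948), and replicates 3 and 4 gave -1.71 (adjusted p = 0.000219).

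**Figure D2:**
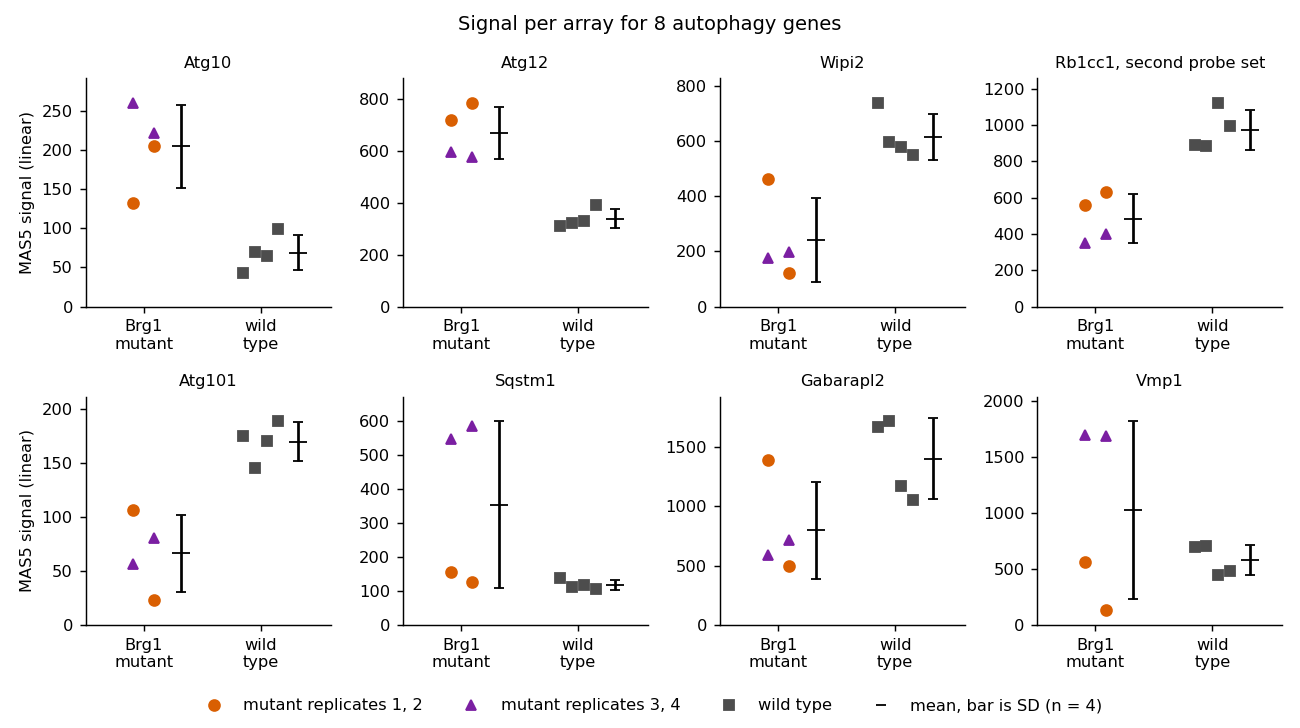
MAS5 signal (linear axis from 0) of 8 autophagy genes on each array, Brg1 mutants left of wild type, with the mean and SD of each group (n = 4). Atg10, Atg12, Wipi2, the second Rb1cc1 probe set and Atg101 separate all mutant from all wild type arrays, whereas Sqstm1 and Vmp1 are high on mutant replicates 3 and 4 alone.

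Wipi1, the paralogue, did not pass on any of its 4 tested probe sets, but all 4 log2 changes were positive, at 0.22, 0.77, 0.54 and 0.97. On the second of them, at 248, 209, 349 and 291 in Brg1 mutants against 161, 119, 204 and 161 in wild type, no arrays of the 2 groups overlapped (adjusted p = 0.103). Some Wipi1 probe sets carry a suffix that marks probes shared between transcripts, so the reading may not belong to Wipi1 alone. The same limit holds for the brightest probe sets of Atg5, Becn1, Gabarapl1, Map1lc3a and Pik3r4, which carry a suffix of this kind. Atg9a, which encodes the membrane protein carried by vesicles to the growing autophagosome, read 404, 314, 253 and 191 in Brg1 mutants and 511, 577, 315 and 413 in wild type. Mutant replicates 2, 3 and 4 were below every wild type array, replicate 2 only just. The log2 change over all arrays was -0.66 (SE 0.296, limma adjusted p = 0.192). Atg2a and Atg2b, the lipid transfer proteins, had log2 changes of -0.35 and 0.13 at signals of at most 90.1 and 138.

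Vmp1, an endoplasmic reticulum scramblase needed for autophagosome formation, had the widest spread over mutant arrays of the 34 tested genes (SD 1.72 on the log2 scale, n = 4). It read 566, 138, 1703 and 1691 in Brg1 mutants, against 695, 705, 451 and 484 in wild type. The values of replicates 3 and 4 were above every other array and replicate 2 was below every other array, so the mean change was 0.27 with a standard error of 0.686 (limma adjusted p = 0.848). A second Vmp1 probe set was lower on all mutant arrays, at 129, 91.4, 99.4 and 119 against 193, 177, 160 and 183 in wild type (log2 change -0.71, SE 0.232, adjusted p = 0.0912). Of the granulosa markers, 9 of 13 are highest on the same 2 arrays as the brightest probe set, as are 3 of 7 oviduct markers, and their part in the Vmp1 values was not tested.

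In the initiation complex, 5 of 5 tested genes did not pass, and 1 (Atg101) was under an unadjusted p of 0.05. Atg101, which stabilises ATG13 in the complex, came closest. It read 107, 22.7, 56.6 and 80.0 in Brg1 mutants, against 174, 145, 170 and 188 in wild type, so that the groups did not overlap, and mutant replicate 2 was below the background bound. The log2 change was -1.55 (SE 0.432, limma adjusted p = 0.0570). It passed under 8 of 21 alternatives, among them both centrings (adjusted p = 0.0413 and 0.0411) and the fits without mutant replicate 1 or without replicate 2 (adjusted p = 0.0250 and 0.0364). Replicates 1 and 2 on their own gave -1.78 (adjusted p = 0.0646) and replicates 3 and 4 gave -1.33 (adjusted p = 0.00235).

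Rb1cc1, which encodes the scaffold FIP200, did not pass on its brightest probe set but fell on the second. The brightest read 939, 570, 419 and 445 in Brg1 mutants and 807, 794, 896 and 894 in wild type (log2 change -0.59, SE 0.277, limma adjusted p = 0.211), with mutant replicate 1 above all wild type arrays. The second read 559, 632, 351 and 398 in mutants and 890, 884, 1123 and 996 in wild type. No arrays overlapped there, and the fall was 2.05-fold (log2 change -1.04, SE 0.249, adjusted p = 0.0368). That call ended without mutant replicate 3 or 4 or any wild type array (adjusted p between 0.0728 and 0.113), with quantile normalization, no filter or no intensity trend (adjusted p between 0.0505 and 0.0559), and with replicates 1 and 2 alone against wild type (log2 change -0.70, adjusted p = 0.0863). Counted over all 56 tested probe sets of the autophagy genes, 2 rose and 2 fell, which is 7.14% called beside 6.56% of all 22518 tested probe sets.

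The kinase gene Ulk1 was described further after its values were seen. Its brightest probe set read 793, 893, 426 and 399 in Brg1 mutants and 865, 729, 822 and 725 in wild type (log2 change -0.41, SE 0.298, limma adjusted p = 0.427). Both of the mutant replicates 3 and 4 were below every other array and passed on their own against wild type (log2 change -0.92, adjusted p = 0.00288), while replicates 1 and 2 gave 0.10 (adjusted p = 0.800). Its second probe set was lower on all 4 mutant arrays, at 123, 56.8, 24.7 and 54.5 against 142, 176, 124 and 163 in wild type (log2 change -1.44, adjusted p = 0.0703). Ulk2, a second kinase of the complex, had a log2 change of 0.36 (SE 0.246), and Atg13, the regulatory subunit, one of -0.48 (SE 0.313).

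In the lipid kinase complex, 5 of 5 tested genes did not pass, and 0 were under an unadjusted p of 0.05. Becn1, which encodes the scaffold Beclin 1, read 893, 1077, 537 and 564 in Brg1 mutants and 543, 549, 511 and 466 in wild type on its brightest probe set. Replicates 1 and 2 stood clear of all other arrays (log2 change 0.93 on their own, limma adjusted p = 0.0394), replicates 3 and 4 did not (0.09, adjusted p = 0.694), and over all arrays the change was 0.51 (SE 0.269, adjusted p = 0.264). The 4 other tested probe sets of Becn1 had log2 changes between -0.42 and 0.29. Uvrag, a subunit of the complex that acts in autophagosome and endosome maturation, read 1197, 2058, 676 and 706 in Brg1 mutants and 1385, 956, 1260 and 1302 in wild type. Mutant replicate 2 was the highest of the 8 arrays and replicates 3 and 4 were the lowest, for a log2 change of -0.22 (SE 0.353, adjusted p = 0.748).

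None of the other tested subunits passed. Atg14, which directs the complex to autophagosome formation, had means of 323 ± 116 in Brg1 mutants and 294 ± 21.3 in wild type (SD, n = 4 each), and Pik3r4, the regulatory subunit, 228 ± 61.1 and 236 ± 56.3. Ambra1, a regulator that binds Beclin 1, had a log2 change of -0.46 (SE 0.379). For the catalytic subunit gene Pik3c3 the only probe set read 8.90, 26.9, 53.5 and 84.7 in mutants and 19.9, 47.3, 46.9 and 32.7 in wild type, above the bound on 2 mutant and 3 wild type arrays. With no filter it had a log2 change of -0.10 (SE 0.665, limma adjusted p = 0.958).

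Of the ATG8 family, 5 of 5 tested genes did not pass, and 1 (Gabarapl2) was under an unadjusted p of 0.05. Gabarapl2 read 1390, 494, 585 and 711 in Brg1 mutants, against 1663, 1711, 1166 and 1054 in wild type. Mutant replicate 1 lay within the wild type range and the other 3 mutant arrays below it (log2 change -0.90, SE 0.338, limma adjusted p = 0.128). Map1lc3b, the LC3 gene most used as an autophagosome marker, read 16772, 8460, 6088 and 4340 in mutants and 6336, 7723, 7410 and 5694 in wild type on its brightest probe set. Replicate 1 was the highest of the 8 arrays and replicate 4 the lowest, for a log2 change of 0.22 (SE 0.383, adjusted p = 0.776). The other 2 tested probe sets of Map1lc3b gave 0.28 and 0.22. Map1lc3a and Gabarap had log2 changes of -0.40 (SE 0.250) and 0.41 (SE 0.260).

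Gabarapl1 was described after its values were seen. It read 30.5, 50.1, 237.5 and 249.4 in Brg1 mutants and 67.6, 84.4, 33.6 and 11.4 in wild type (log2 change 1.34, SE 0.801, limma adjusted p = 0.327). Wild type replicate 4 was under its background bound of 16.35. The pair of replicates 3 and 4 was above every other array (log2 change 2.66 on their own, adjusted p = 0.0127), and replicates 1 and 2 gave 0.02 (adjusted p = 0.987).

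Sqstm1 showed the same split in the cargo receptors. Its product p62 links ubiquitinated cargo to ATG8 proteins and is itself consumed by autophagy. It read 157, 127, 546 and 585 in Brg1 mutants, against 139, 111, 117 and 105 in wild type. Mutant replicates 3 and 4 were far above the other 6 arrays and replicate 2 lay within the wild type range, so the change over all arrays did not pass (log2 change 1.27, SE 0.487, limma adjusted p = 0.137). Taken alone, replicates 3 and 4 gave 2.27 (adjusted p = 7.3e-05), and replicates 1 and 2 gave 0.27 (adjusted p = 0.554). Granulosa markers summed to at least 15539 on those 2 arrays and to at most 701 on the others, oviduct markers to at least 1892 and at most 1353. Single markers did not all follow, as 9 of 13 granulosa and 3 of 7 oviduct markers were highest there and Ptx3, Pax8 and Foxj1 were lowest. The part of this marker signal in the Sqstm1 values was not tested.

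Nbr1, a receptor related to p62, had close means of 1873 ± 219 in Brg1 mutants and 2003 ± 329 in wild type (SD, n = 4 each; log2 change -0.09, SE 0.223, limma adjusted p = 0.846). The 4 mutant arrays read 1762, 1775, 1753 and 2200, and the 4 wild type arrays 2192, 1542, 2000 and 2280. Epg5, a tether that helps autophagosomes fuse with lysosomes, read 201, 235, 136 and 117 in mutants and 318, 259, 226 and 205 in wild type. There, replicates 1, 3 and 4 were below every wild type array, replicate 1 only just, and replicate 2 was within their range (log2 change -0.59 over all arrays, SE 0.287, adjusted p = 0.232). Tfeb was dim, at 19.9 to 61.0 in mutants and 33.7 to 69.8 in wild type, and had a log2 change of -0.28 (SE 0.420).

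Set side by side, the mutant pairs gave different lists. Replicates 1 and 2 against wild type called 3 of 34 genes, all higher, Atg5, Atg12 and Becn1, which is 8.82% beside 7.44% of all genes in that fit (3.86% higher and 3.58% lower). Replicates 3 and 4 called 13 of 34 (38.2%), beside 43.5% of all genes (19.2% higher and 24.4% lower), so a call there says little of autophagy. Those 13 were Atg10, Atg12, Gabarapl1, Sqstm1 and Vmp1 higher, and Atg9a, Atg101, Epg5, Gabarapl2, Rb1cc1, Ulk1, Uvrag and Wipi2 lower. The Atg5, Becn1 and Gabarapl1 calls are on probe sets whose suffix marks probes shared between transcripts. The median log2 change was 0.05 in replicates 1 and 2, beside 0.04 for all genes, and -0.06 in replicates 3 and 4, beside -0.19 for all genes. In 10 of the 34 genes the 2 pairs had opposite signs. Atg12 was the one gene called in the 2 pairs and over all arrays, and both pairs share the wild type arrays.

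**Figure D3:**
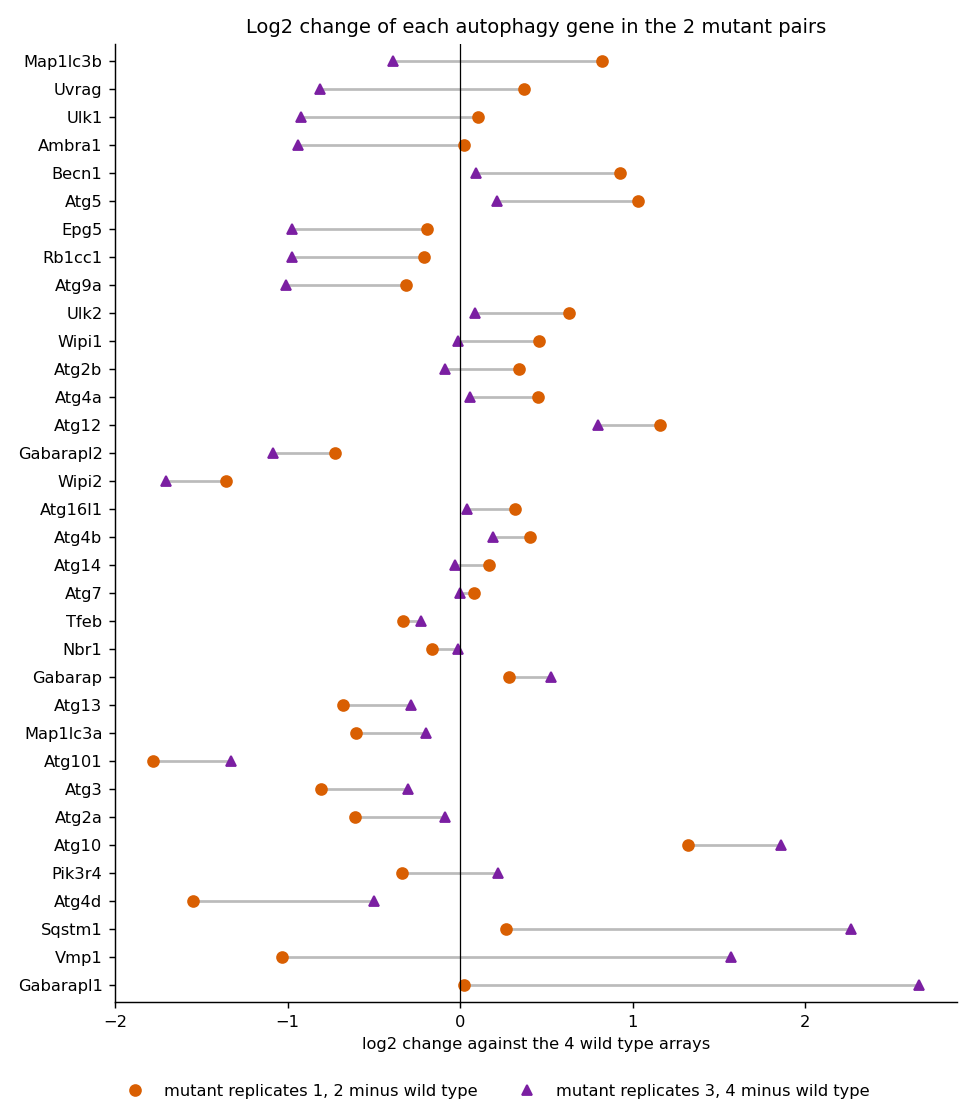
Log2 change of each of the 34 tested autophagy genes against the same 4 wild type arrays, in mutant replicates 1 and 2 (circles) and in mutant replicates 3 and 4 (triangles), ordered by the difference. Gabarapl1, Vmp1 and Sqstm1 lie furthest toward replicates 3 and 4 and Map1lc3b and Uvrag furthest the other way, while Atg10, Atg12, Wipi2, Atg101 and Gabarapl2 lie on the same side of 0 in both.

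Of the 14 autophagy genes with several tested probe sets, 7 had probe sets of both signs. Those were Atg4b, Atg5, Becn1, Map1lc3a, Ulk2, Vmp1 and Wipi2. For 0 of the 14 was a probe set called in each direction by limma. Atg4b is an example in which neither of a pair of probe sets passed but each separated the groups, in opposite directions. The brighter read 292, 296, 240 and 269 in Brg1 mutants and 206, 234, 239 and 213 in wild type (log2 change 0.30, limma adjusted p = 0.409). The dimmer read 180, 112, 170 and 198 in mutants and 307, 251, 279 and 272 in wild type (log2 change -0.78, adjusted p = 0.0842). The stretch of transcript behind each probe set was not looked up here.

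**Figure D4:**
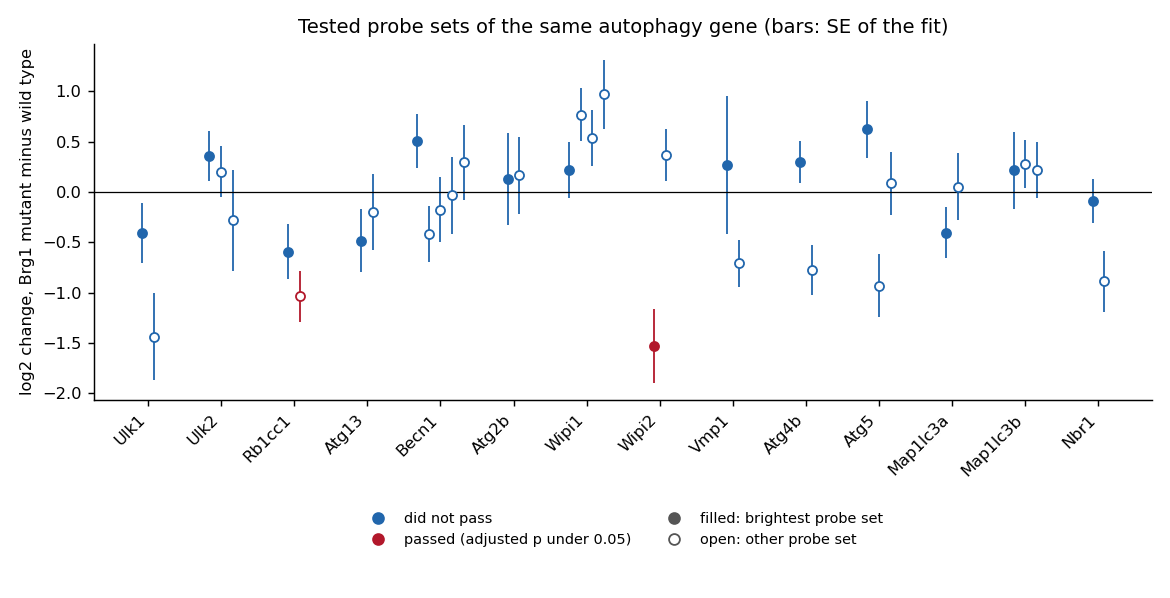
Log2 change (Brg1 mutant minus wild type) with its standard error for every tested probe set of the 14 autophagy genes that have several, filled for the brightest and open for the others, red where the adjusted p was under 0.05. Wipi2, Vmp1, Atg4b and Atg5 have probe sets on opposite sides of 0, and the 4 of Wipi1 all lie above it.

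The wider pathway was described by 75 further genes that signal to the machinery, add to it or act after it, of which 66 were tested. Of these 4 rose, 1 fell and 61 did not pass, which is 7.58% called beside the 7.04% of all genes. The median log2 change was 0.16, beside -0.05 for all genes. By pair it was 0.09 in mutant replicates 1 and 2, beside 0.04 for all genes. In replicates 3 and 4 it was 0.24, beside -0.19 for all genes. Wdfy3, whose product ALFY is a scaffold for the autophagy of protein aggregates, had the lowest adjusted p. It read 345, 305, 412 and 473 in Brg1 mutants, against 98.9, 108, 141 and 131 in wild type, and rose 3.20-fold (log2 change 1.68, SE 0.243, limma adjusted p = 0.00976). It passed in each of the 8 fits that left out 1 sample and in both mutant pairs (adjusted p = 0.0171 in replicates 1 and 2). A second probe set of Wdfy3 rose too, 1.99-fold (adjusted p = 0.0319), while 2 others did not pass (log2 change -0.59 and -0.01). With the mean of its probe sets Wdfy3 did not pass, at 0.52 (adjusted p = 0.160).

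Sesn2, which restrains TORC1 when amino acids are scarce, was the gene that fell, at 889, 510, 359 and 359 in Brg1 mutants against 2414, 2160, 1342 and 1691 in wild type. It lost the call without wild type replicate 1 or 4 (limma adjusted p = 0.0626 and 0.0565). Lamtor3, a subunit of the Ragulator complex that anchors TORC1 at lysosomes, read 969, 1359, 1440 and 1492 in mutants and 326, 357, 735 and 582 in wild type and rose 2.74-fold (adjusted p = 0.0244). Plekhm1, an adaptor that brings autophagosomes and lysosomes together, was lower on all mutant arrays without passing, at 228, 237, 152 and 174 against 553, 437, 299 and 336 in wild type (log2 change -1.02, adjusted p = 0.0516).

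The lysosomal membrane genes Lamp1 and Lamp2 were the remaining rises. Lamp1 read 1174, 1491, 1672 and 1760 in Brg1 mutants and 858, 913, 634 and 612 in wild type, 2.03-fold higher (limma adjusted p = 0.0351). Lamp2 read 911, 529, 2558 and 2424 in mutants and 390, 314, 416 and 334 in wild type (log2 change 1.86, adjusted p = 0.0415). Replicates 3 and 4, with the higher summed granulosa and oviduct marker signal, were the highest for both. Of those markers, 9 of 13 granulosa and 3 of 7 oviduct ones were highest there, and their part in the Lamp1 and Lamp2 values was not tested. Replicates 1 and 2 on their own gave 0.83 and 0.94 (adjusted p = 0.0812 and 0.0748). Other Lamp2 probe sets did not pass, with log2 changes of -0.59, -0.04 and 1.46. Lamtor3 lost its call without mutant replicate 3 or 4 or wild type replicate 1, 2 or 4 (adjusted p between 0.0634 and 0.0875), and Lamp1 and Lamp2 without mutant replicate 3 or 4 or any wild type replicate (adjusted p between 0.0577 and 0.115). Lamp1 and Lamp2 also lost it with median centring (adjusted p = 0.0575 and 0.0631), no filter (0.0505 and 0.0577) and no intensity trend (0.0506 and 0.0524). With the mean of its probe sets Lamp2 stood at 0.67 (adjusted p = 0.337).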

How the data were processed

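Total RNA of pooled embryos was labelled for Affymetrix arrays, per the labels' protocols. Each probe set had a deposited intensity, which the submitters' processing notes name as MAS5, with no version stated. Every array had a 2% trimmed mean of 150 and was not rescaled. Values below 1 were raised to 1 before the log2 step. Of 45037 probe sets that are not controls, 22518 ranked in the upper 50% on mean log2 signal and were tested with limma 3.58.1 in R 4.3.3 (intensity trend, two-sided, Benjamini-Hochberg over all of them, threshold 0.05). Folds are log2 changes raised from base 2, and SE is that of the fit. The number of arrays limits the precision.

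By the platform annotation 34945 probe sets carried 1 symbol, 932 several and 9160 none. The RefSeq table of GRCm38.p6 changed 0 symbols. Described in full are the 12 autophagy genes with the smallest p, the member with the highest mean log2 signal in each role group, and 6 genes of the wider list, by passing and then by smallest p. Second probe sets and other members given array by array were picked after their values were seen. The members, the lists, the background bound and the split into mutant pairs were chosen with earlier results of these data known.

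Alternatives were quantile normalization, centring, filters, a pseudocount of 12.5, no trend, array weights, a replicate block, other choices of probe set, each sample left out, and each mutant pair left out.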

Additional observations from a re-analysis of the deposited data

Results flagged for a closer look

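Atg4d, the gene of an ATG8 protease, read 13.5 on mutant replicate 2, against 58.1 to 76.0 on the other 3 mutant arrays, a gap of 0.845 of the group's log2 range where 0.829 is the critical value for 4 samples. The flagged value is under that array's background bound of 37.7. Nbr1 read 2200.3 on mutant replicate 4, against 1753 to 1775 on the other 3 mutant arrays, a gap of 0.947 of the range. These were 2 of 68 groups of 4 examined, and chance flags about 1 in 20 groups.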

How the results depend on the processing

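Over all 8 arrays limma called 2 autophagy genes higher and 1 lower, and 4 wider pathway genes higher and 1 lower. With median centring these were 1 and 2, and 2 and 2, and with centring on the 75th percentile 1 and 2, and 4 and 2. Over all tested probe sets the calls shifted toward lower too, with 671 higher and 807 lower as reported, 421 and 1557 with median centring and 496 and 1104 with the 75th percentile. With no filter 0 autophagy genes were lower (4 at an unadjusted p under 0.05) and 2 wider genes higher. The upper 30% gave 2 lower in each list, the pseudocount 2 lower autophagy genes, and the fit with no intensity trend 2 higher wider genes. Of all probe sets fitted, 2.73% passed with no filter and 11% with the upper 30%. With the pseudocount 6.79% passed, and with no trend 5.34%. Array weights gave 6 higher and 9 lower, and 25 and 9 in the wider list, which is 44.1% and 51.5% of the tested genes beside 51% of all tested probe sets. Averaging each gene's probe sets gave 0 lower autophagy genes (7 unadjusted) and 2 lower wider genes, where 6.7% of all genes passed. Without mutant replicates 3 and 4, 0 autophagy genes were lower (5 unadjusted) and 2 wider genes higher, and 6.71% of all tested probe sets passed. Without replicates 1 and 2 the counts were 5 and 8, and 21 and 10. That is 38.2% and 47.0% of the tested genes, beside 41.6% of all tested probe sets. Leaving out 1 sample at a time gave 0 to 3 higher and 0 to 4 lower, and 1 to 9 higher and 0 to 4 lower in the wider list (3 to 5 lower unadjusted). Of all tested probe sets, 12% passed without mutant replicate 1 and 13% without mutant replicate 2. Without mutant replicate 3, mutant replicate 4 or any wild type replicate, 0 autophagy genes passed, with 2 to 4 higher and 2 to 4 lower at an unadjusted p under 0.05, and 0.324% to 1.96% of all probe sets passed. The median log2 change of the autophagy genes was -0.19 and -0.16 with the centrings, -0.20 with the mean of probe sets and -0.15 without _x_at and _s_at probe sets, and -0.14 to 0.072 with 1 sample left out. Over all tested probe sets the median was -0.05 as reported, -0.22 and -0.19 with the centrings and -0.14 with quantile normalization. With the replicate number as a block 0 genes passed in either list, in either direction (3 autophagy genes higher and 4 lower, and 14 wider genes higher and 3 lower, unadjusted), and 15 of 22518 probe sets passed. Deviations of same-numbered samples from their group means had correlations of 0.024, -0.177, -0.129 and -0.087. The mutant deviations also hold the difference between the 2 mutant pairs, so these values cannot decide whether the numbers pair samples. The labels state no pairing, and none was used in the fits reported above. Lamp2 turned to -0.59 without _x_at and _s_at probe sets, where another probe set stands for it. The 8 called genes of both lists kept their call in 105 of 168 such fits, from 8 of 21 for Lamp2 to 19 of 21 for Wdfy3. The cause of these moves was not tested. Dim probe sets limit Atg4c, Pik3c3 and Tfeb. Atg4d, Atg101 and Tfeb were under the background bound on mutant replicate 2, and Gabarapl1 on wild type replicate 4.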
